A study of Mus musculus with 6 samples.

Results

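The insulin-like growth factors (IGFs), their receptors and their binding proteins were examined in Rap1-knockout and wild-type mouse embryonic fibroblasts. The set comprised 10 genes: the ligands Igf1 and Igf2, the non-coding RNA H19, the receptors Igf1r and Igf2r, and the binding proteins Igfbp3, Igfbp4, Igfbp5, Igfbp6 and Igfbp7. Members were found by the RefSeq accession that the array files give for each probe. This gave 14 of 41174 probes, for 9 of the 10 genes. No probe was matched to H19, which was not analysed here. A probe entered the test if every array of 1 group, or of both, read it well above background, and 13 of the 14 did. The exception was 1 of the Igfbp5 probes, which was not well above background on any array.

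Total RNA was hybridised to 6 one-colour Agilent arrays, 3 of Rap1-knockout and 3 of wild-type cells. Knockout cells carried a deletion of exon 3 of Terf2ip, the gene of the telomere protein Rap1, made by Cre recombinase from a floxed allele. Wild-type cells kept the exon but, per the labels, were infected with Cre recombinase and with the SV40 large T antigen in the same way. All cells grew in medium with 2 µg/ml puromycin. The cells are therefore a model in which large T antigen, which blocks p53 and the retinoblastoma proteins, is present in both groups. Whether the 3 samples of a group are separate embryos or cultures is not given in the labels. The p-values therefore cover the spread among these samples, which may be technical.

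IGF1 and IGF2 are small secreted proteins that signal through the receptor tyrosine kinase IGF1R to the PI3K-AKT and RAS-MAPK pathways. The IGF2 receptor, also the mannose 6-phosphate receptor, carries IGF2 to the lysosome, and the binding proteins hold IGFs in the medium and the matrix. Mouse embryonic fibroblasts without Igf1r are known to resist transformation by large T antigen. Igf2 and H19 lie side by side on chromosome 7 and are imprinted: Igf2 is expressed from the paternal and H19 from the maternal chromosome.

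Values are log2 signals relative to the 75th percentile of the same array, so 0 is the level of a bright probe. They compare arrays for 1 probe, and levels of different genes are not set against each other. Between 61.7% and 67.1% of probes were well above background per array, and no spot was saturated. The number of arrays limits the precision. Terf2ip read −7.91, −9.08 and −8.11 on knockout arrays 1, 2 and 3, where it was not well above background, and −1.75, −1.65 and −1.81 on wild-type arrays 1, 2 and 3. It fell at least 37.7-fold (limma adjusted p = 0.00794), a call kept under 9 of 16 alternatives. The log2 difference between wild-type arrays 2 and 3 had an SD of 0.25 over all features, against 0.83 to 1.25 for every other pair of arrays. They lay on slide 2 with knockout arrays 2 and 3, while wild-type array 1 and knockout array 1 lay on slide 1. Fibroblast markers were measured for 14 of 14 genes, with a mean level of 1.61, 3.63 and 2.84 on knockout arrays 1, 2 and 3 and 4.36, 3.38 and 3.36 on wild-type arrays 1, 2 and 3. Lum and Fap, genes of a matrix proteoglycan and a protease, were not well above background on 1 knockout array. Among markers of other cells, 2 of 7 endothelial, 3 of 7 blood, 5 of 7 epithelial, 1 of 6 skeletal muscle, 3 of 6 fat cell and 4 of 6 neural genes passed the detection filter. Pecam1 and Cdh5 (endothelium), Ptprc (blood), Cdh1 (epithelium), Myod1 (muscle) and Adipoq (fat) did not. The neural genes that did were Sox2, Tubb3, Nes and Map2, and Sox10 was not analysed here. Other markers were well above background on all 6 arrays. Among them were Kdr (endothelium), Cd14 (blood), Epcam, Krt8 and Krt18 (epithelium), Acta1 (muscle), and Pparg and Fabp4 (fat). Krt18 differed by 1.53 (SE 0.48) and Fabp4 by −2.55 (SE 0.70), knockout minus wild type. Others of the same lists went the other way: Krt8 differed by −1.74 (SE 0.72) and Plin1, a fat cell gene, by 1.16 (SE 0.33). Plin1 entered the test only through the knockout arrays, where it was higher. Of the measured genes, 2 of 5 epithelial and 1 of 3 fat cell genes lay above 0. The groups did not overlap for Krt18, Fabp4 and Plin1, as for 17.3% of all features, and overlapped for Krt8.

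Knockout and wild-type cells were compared to ask which IGF genes depend on Rap1. None of the 9 measured members passed the test over all features (limma adjusted p under 0.05). The background was 2 of 19657 features, or 0.0102%, both lower in knockout cells. At an unadjusted p under 0.05 there was 1 member, Igf2, against 10.3% of all features in either direction and 4.66% lower. The groups did not overlap for 2 of 9 members, Igf2 and Igfbp4, both lower in knockout cells, against 17.3% of all features in either direction and 5.89% lower. A log2 difference of at least 1 in either direction was seen for 3 of 9 members (Igf2, Igfbp3 and Igfbp5, all below 0), against 10.2% of all features. The median difference of the members was −0.43 and that of all features 0.07.

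**Figure D1:**
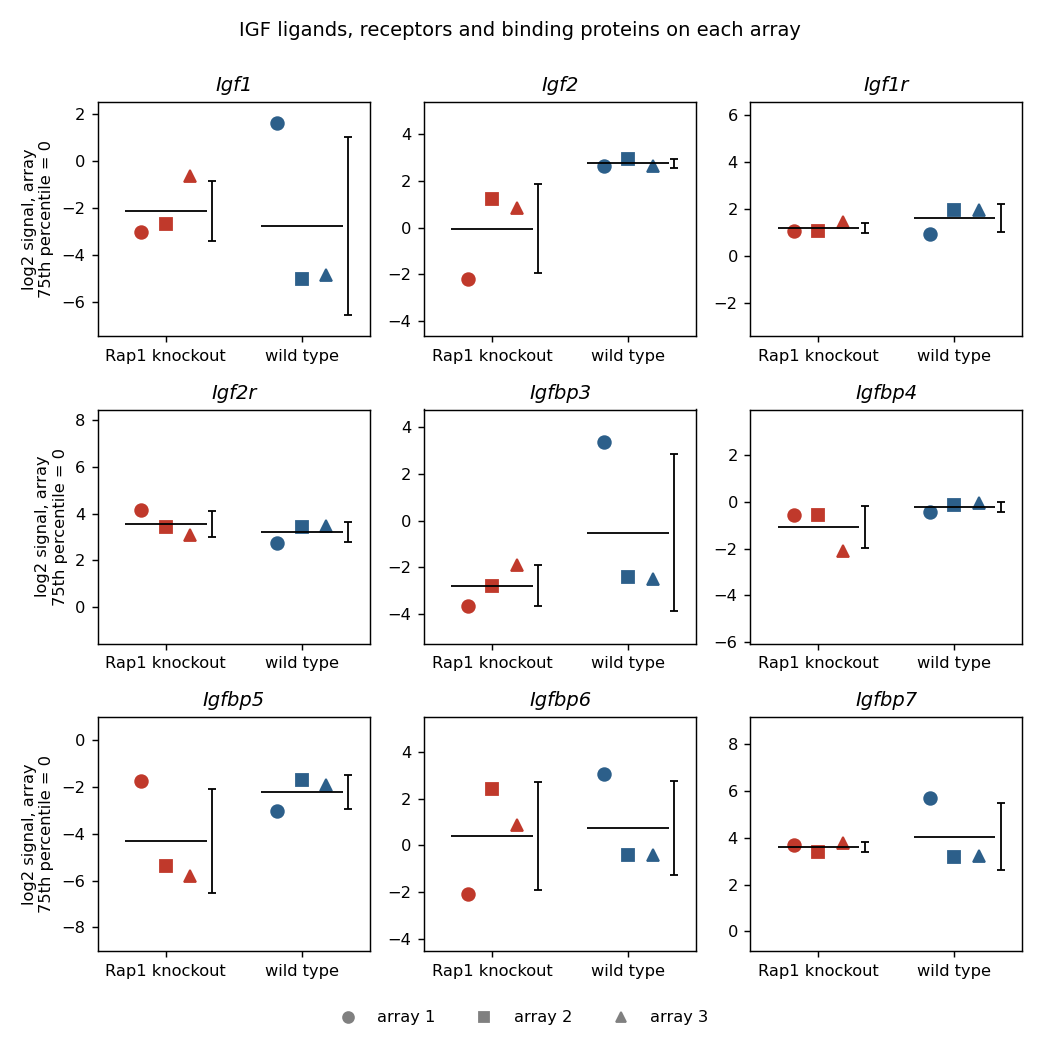
Log2 signal relative to each array's 75th percentile (y axis, 10 units in every panel) for the 9 measured IGF genes on 3 Rap1-knockout (red) and 3 wild-type (blue) arrays; symbols mark the array number, lines the group mean and bars the SD. Igf2 lies lower on every knockout array, while Igf1, Igfbp3 and Igfbp7 stand apart on wild-type array 1 and Igfbp6 spreads widely within both groups.

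Igf2, the fetal growth factor and IGF2R ligand, was the member of smallest p. RefSeq (GRCm38.p6) places 4 annotated transcription starts in the gene. Both Igf2 probes carry the same accession, NM_010514. Their positions in the transcript were not available, so whether they tell the starts apart was not determined. The starts are shown because which of them the Igf2 signal came from is not known. Each line gives 30 bases of the minus strand of chromosome 7, 5′ to 3′, with the first 15 transcribed bases in capitals.
Igf2 start 1, chr7:142666802-142666831: agcactgtggactctGCCGAGGAAGCTCTG
Igf2 start 2, chr7:142661257-142661286: gcataacagtggtatCGGCCTCGTCACTTC
Igf2 start 3, chr7:142658790-142658819: gccctctgccttcgcCTACCCAAGTGGATT
Igf2 start 4, chr7:142657482-142657511: gacataaaaagcggaGGCACTGACCAGTTC
The GC box GGGCGG, searched on both strands from 250 bases before to 50 after each start, was found 1 time at start 3 and 2 times at start 4, and not in the windows of starts 1 and 2. Of all 32851 promoter windows of this length, 35.7% hold it.

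Both genes of the imprinted pair also host a microRNA, listed here as the products of the locus that were not analysed. The seed, bases 2 to 8, is in capitals, and no 2 of the 4 share one.
mmu-miR-483-3p, in Igf2: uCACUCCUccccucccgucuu
mmu-miR-483-5p, in Igf2: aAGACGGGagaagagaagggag
mmu-miR-675-3p, in H19: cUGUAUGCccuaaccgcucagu
mmu-miR-675-5p, in H19: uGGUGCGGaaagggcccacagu

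The main Igf2 probe read −2.20, 1.23 and 0.85 on knockout arrays 1, 2 and 3, against 2.63, 2.94 and 2.64 on wild-type arrays 1, 2 and 3. All knockout arrays lay below all wild-type arrays, and knockout array 1 lay far below the others. The probe averaged −0.04 ± 1.88 in knockout and 2.74 ± 0.18 in wild-type cells (SD, n = 3 each), so the knockout mean was lower by a log2 difference of −2.78 (limma, SE 0.87, adjusted p = 0.471). In these bulk samples, fewer cells of a type and less RNA per cell cannot be told apart. Without knockout array 1 the difference was −1.69. It was −4.83 on slide 1, with 1 array of each group, and −1.75 on slide 2. With wild-type arrays 2 and 3 averaged to 1 sample it was −2.75. Its direction was the same under 17 of 17 alternatives, where the adjusted p ran from 0.0628 to 0.945.

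A second Igf2 probe also separated the groups. It read −4.60 on knockout array 1 and up to −0.80 on the other knockout arrays, against 0.58, 1.02 and 0.65 on wild-type arrays 1, 2 and 3. Its difference was −2.88 (SE 0.97, limma adjusted p = 0.495 over all probes, of which 6 of 25520, or 0.0235%, passed). The 2 probes stayed between 1.86 and 2.39 apart on the 6 arrays. The main probe was printed at 10 spots, whose processed signals varied with a coefficient of variation of 3.28% to 3.99% per array. Their medians were 187.6, 1960.6 and 2421.1 on knockout arrays 1, 2 and 3 and 7135.5, 8520.2 and 6461.4 on wild-type arrays 1, 2 and 3. The spread between spots covers measurement on 1 array only, not the difference between samples.

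The array on which Igf2 was lowest, knockout array 1, also had the lowest mean of the fibroblast markers. That mean was low through 5 of the 14, Thy1, Pdgfra, Dcn, Lum and Fap, which were lowest there of all 6 arrays. Others were not: Pdgfrb and Fbn1 were highest of all 6 arrays there, at 4.56 and 2.10, and the collagen gene Col1a2 read 7.28 there, against 4.99 and 5.67 on knockout arrays 2 and 3. Dcn, which encodes the matrix proteoglycan decorin, read −5.47, 4.97 and 2.19 on knockout arrays 1, 2 and 3 and 5.79, 3.54 and 3.13 on wild-type arrays 1, 2 and 3. Pdgfra, a receptor that marks fibroblasts, read −1.48, 1.99 and 0.12 on the knockout arrays and 2.92, 2.43 and 2.40 on the wild-type arrays. The part of such marker differences in the Igf2 value was not tested. Among the genes whose profile over the 6 arrays lay closest to that of Igf2 were Casp4, Fgf21, Trim66 and Aire. Their centred log2 values differed from those of Igf2 by a root mean square of 0.23, 0.33, 0.39 and 0.41, where Igf2 itself varied by 1.77 around its mean. Trim66 and Aire were not well above background on some knockout arrays. For Casp4, which encodes an inflammatory caspase, the values were −2.17, 1.51 and 0.64 on the knockout arrays and 2.25, 2.63 and 2.34 on the wild-type arrays.

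Igf1, the growth hormone-dependent ligand, differed far more between wild-type arrays than between groups. It read −3.03, −2.66 and −0.64 on knockout arrays 1, 2 and 3, against 1.64, −5.03 and −4.87 on wild-type arrays 1, 2 and 3. All knockout arrays lay between wild-type array 1 and the other wild-type arrays. The group difference was 0.64 (SE 1.80, limma adjusted p = 0.886), with −4.67 on slide 1 and 3.30 on slide 2, and 2.84 without wild-type array 1. The 10 spots of the Igf1 probe had median processed signals of 106.0, 132.6 and 854.7 on the knockout arrays and 3598.9, 33.8 and 35.1 on the wild-type arrays, with a coefficient of variation of at most 10.16% per array. Wild-type array 1 thus stood 96.1-fold above the mean of wild-type arrays 2 and 3, on a log2 scale a gap of 6.59.

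Of the receptors, neither differed between groups beyond the spread of the arrays. Igf1r, the signalling receptor, read 1.05, 1.06 and 1.45 on the knockout arrays and 0.93, 1.97 and 1.95 on the wild-type arrays, so the groups overlapped. Its log2 difference was −0.43 (SE 0.35, limma adjusted p = 0.601), and −0.78 without wild-type array 1. The other 2 Igf1r probes differed by −0.51 (SE 0.38) and −0.11 (SE 0.27). On slide 1 the 3 probes gave 0.12, −0.11 and 0.54, and on slide 2 they gave −0.71, −0.71 and −0.44.

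Igf2r, the clearance receptor of IGF2, read 4.15, 3.43 and 3.07 on the knockout arrays and 2.74, 3.42 and 3.48 on the wild-type arrays. Its difference was 0.33 (SE 0.36, limma adjusted p = 0.688), with 1.41 on slide 1 and −0.20 on slide 2. Without knockout array 1 it was 0.03.

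Igfbp3, the main IGF carrier of serum, was high on 1 array. It read −3.63, −2.80 and −1.90 on the knockout arrays and 3.35, −2.41 and −2.49 on the wild-type arrays. Wild-type array 1 exceeded the other wild-type arrays by 5.80 on the log2 scale, or 55.6-fold, and these lay within the range of the knockout arrays. The group difference of −2.26 (SE 1.55, limma adjusted p = 0.559) became −0.33 without wild-type array 1 and was −6.98 on slide 1 and 0.09 on slide 2. The closest profiles were those of Serpinb6b, Trf, Grin2c, Aass and Hoxa2, at a root mean square difference of 0.49 to 0.59, where Igfbp3 varied by 2.29 around its mean. Trf, which encodes the iron carrier transferrin, read −4.26, −2.57 and −1.91 on the knockout arrays and 2.26, −3.46 and −3.33 on the wild-type arrays.

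Igfbp4, a binding protein that the protease PAPP-A cleaves to free IGFs, lay lower on every knockout array. It read −0.55, −0.56 and −2.11 on the knockout arrays, against −0.45, −0.15 and −0.06 on the wild-type arrays. The gap between groups was small except on knockout array 3. The difference was −0.85 (SE 0.45, limma adjusted p = 0.511), or −0.33 without knockout array 3. Its second probe read −1.63, −1.54 and −3.13 on the knockout arrays and −1.31, −1.17 and −0.96 on the wild-type arrays, again without overlap, with a difference of −0.95 (SE 0.45).

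Igfbp5, a binding protein that attaches to matrix, was low on 2 of 3 knockout arrays. It read −1.77, −5.39 and −5.80 on the knockout arrays and −3.03, −1.70 and −1.93 on the wild-type arrays. Knockout array 1 lay within the wild-type range. The difference was −2.10 (SE 1.06, limma adjusted p = 0.504), with −3.37 without knockout array 1 and −1.36 without knockout array 3. It was 1.27 on slide 1 and −3.78 on slide 2, so the slides differed in direction. In a fit of slide 2 alone Igfbp5 passed (limma adjusted p = 0.0293). That fit has only wild-type arrays 2 and 3, which were nearly alike. After normexp correction with quantile normalisation the difference was −1.01.

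Igfbp6, which prefers IGF2 over IGF1, spread widely within both groups. It read −2.09, 2.42 and 0.89 on the knockout arrays and 3.05, −0.41 and −0.40 on the wild-type arrays. The difference was −0.34 (SE 1.37, limma adjusted p = 0.923), with −5.14 on slide 1 and 2.06 on slide 2, and it turned to 0.81 without wild-type array 1 and to 0.91 without knockout array 1.

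Igfbp7, a relative of the binding proteins with low affinity for IGFs, read 3.68, 3.38 and 3.78 on the knockout arrays and 5.69, 3.19 and 3.23 on the wild-type arrays. The knockout arrays were alike, and wild-type array 1 stood apart. The difference was −0.43 (SE 0.68, limma adjusted p = 0.787), with −2.02 on slide 1 and 0.37 on slide 2, and 0.40 without wild-type array 1.

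**Figure D2:**
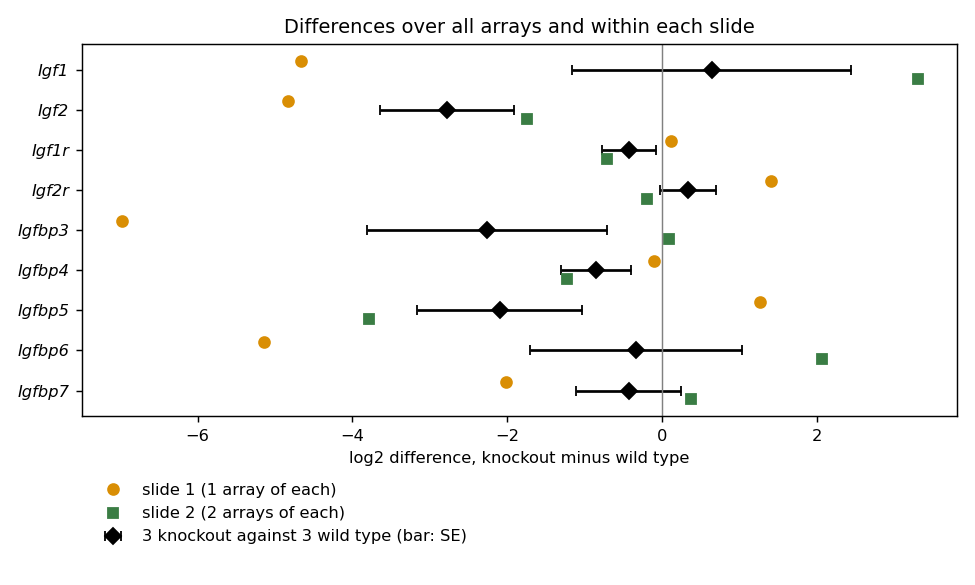
Log2 difference, knockout minus wild type (x axis), of the 9 measured IGF genes (rows): diamonds with SE bars over all arrays, circles within slide 1 (1 array of each group) and squares within slide 2 (2 of each). Igf2 and Igfbp4 lie below 0 on both slides, while Igf1, Igf1r, Igf2r, Igfbp3, Igfbp5, Igfbp6 and Igfbp7 change sign between them.

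The spread among wild-type arrays was compared next. Wild-type array 1 differed from the mean of wild-type arrays 2 and 3 by at least 1 on the log2 scale for 6 of 9 members, against 16.7% of all features. Igf1, Igfbp3, Igfbp6 and Igfbp7 were higher on wild-type array 1, by 6.59, 5.80, 3.45 and 2.49. Igf1r and Igfbp5 were lower there, with gaps of −1.03 and −1.22. A gap as large as that of Igf1 was seen for 34 of 19655 features (0.173%) and one as large as that of Igfbp3 for 56 (0.285%). Igf2 had a gap of only −0.17, which 77.5% of features reached. The wild-type arrays were given 1 label, and among them slide and array cannot be told apart. Knockout array 1 also lay on slide 1. Of the 4 members higher on wild-type array 1, it was the lowest knockout array for Igf1 (−3.03), Igfbp3 (−3.63) and Igfbp6 (−2.09). For Igfbp7 (3.68) it lay between the other knockout arrays. The part of the slide was not tested.

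**Figure D3:**
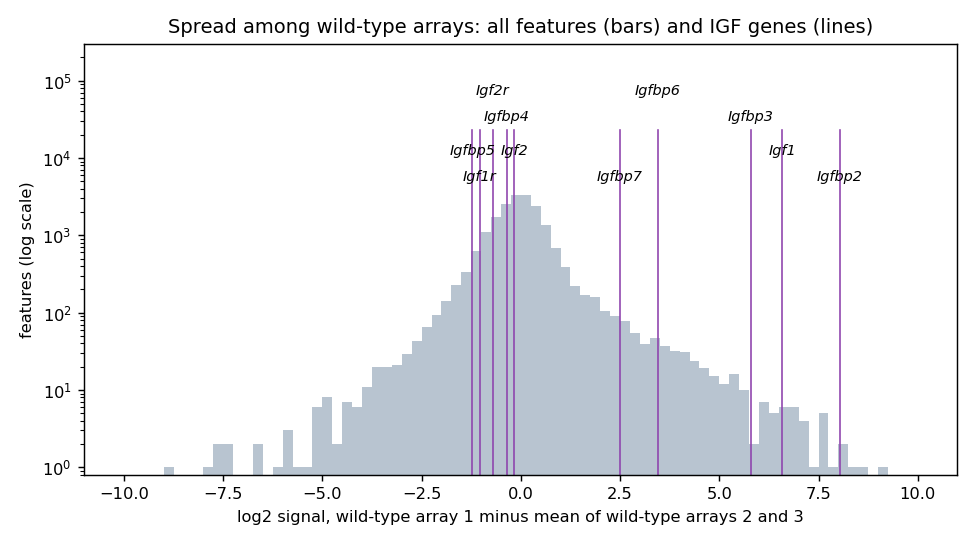
Histogram of the log2 signal on wild-type array 1 minus the mean of wild-type arrays 2 and 3 (x axis) over all features (y axis, log scale), with lines at the 9 measured members and Igfbp2. Igf1, Igfbp2 and Igfbp3 lie far to the right at 6.59, 8.03 and 5.80, and Igf2 near the centre at −0.17.

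Other genes of the IGF axis were taken from 4 lists: proteases and further binders, receptors and adaptors, downstream kinases, and regulators of the Igf2 message or locus. Of 75 genes listed, 63 were measured, and limma called 0 higher and 0 lower in knockout cells. At an unadjusted p under 0.05 there were 4 higher and 2 lower, against 10.3% of all features in either direction. The groups did not overlap for 11 (9 higher, 2 lower), or 17.5%, against 17.3% of all features. The median difference was 0.02.

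Among proteases and binders, 0 of 9 measured genes passed and 0 had an unadjusted p under 0.05, against 10.3% of all features. Igfbp2, another IGF carrier, read 0.55, 0.55 and −0.14 on the knockout arrays and 2.01, −6.07 and −5.97 on the wild-type arrays. As for Igf1, the knockout arrays lay between wild-type array 1 and the others. Its difference was 3.66 (SE 2.09, limma adjusted p = 0.519), with −1.47 on slide 1 and 6.22 on slide 2. Without wild-type array 1 it was 6.33 and passed (limma adjusted p = 0.0137), in a fit whose wild type was arrays 2 and 3 alone. Pappa, which encodes PAPP-A, differed by 1.06 (SE 0.89), and its inhibitors Stc1 and Stc2 by −1.99 (SE 1.09) and −1.20 (SE 0.90). Single arrays moved all of these: Pappa ran from 0.31 without knockout array 1 to 1.90 without wild-type array 1, and Stc2 from −0.33 without knockout array 3 to −1.92 without wild-type array 1. Stc1, well above background on only 2 of the knockout arrays, ran from −1.28 without knockout array 3 to −3.12 without wild-type array 1, and normexp correction with quantile normalisation gave −0.88.

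Among receptors and adaptors, 0 of 20 measured genes passed. At an unadjusted p under 0.05, 3 were higher and 1 was lower, against 10.3% of all features in either direction. Stat5a, a factor downstream of the growth hormone receptor, read 1.75, 1.16 and 1.09 on the knockout arrays and 0.83, 0.02 and −0.01 on the wild-type arrays (difference 1.06, SE 0.33, limma adjusted p = 0.471). Grb2, the adaptor that links receptors to RAS, read 3.44, 3.31 and 3.20 on the knockout arrays and 2.71, 2.74 and 2.73 on the wild-type arrays (difference 0.59, SE 0.20, limma adjusted p = 0.474). Knockout and wild-type arrays did not overlap for 5 of the 20 genes, all higher in knockout cells, Stat5a, Grb2 and Ptpn1 among them. This compares with 17.3% of all features in either direction and 11.4% higher. Ptpn1, a phosphatase of the insulin receptor, differed by 0.81 (SE 0.32), Ghr, the growth hormone receptor, by −1.38 (SE 0.50), and Socs2, a brake on growth hormone signalling, by −0.68 (SE 0.52). Leaving out wild-type array 1 gave −0.28 for Socs2, and leaving out knockout array 2 gave −0.23. Values were −0.50, 0.14 and 1.43 for Ghr on the knockout arrays and 1.40, 1.99 and 1.81 on the wild-type arrays, where the groups overlapped only through knockout array 3.

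Downstream kinases and their partners stayed within 2-fold between groups. Of 26 measured genes 0 passed and 1 was higher at an unadjusted p under 0.05, against 10.3% of all features in either direction. Tsc2, a brake on mTOR signalling, differed by 0.75 (SE 0.30) and Eif4ebp1, a translation repressor under mTOR, by −0.56 (SE 0.36).

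Among regulators of the Igf2 message or locus, 0 of 8 measured genes passed. Against 10.3% of all features in either direction and 4.66% lower, 1 was lower at an unadjusted p under 0.05. This was Hmga2, a chromatin protein of embryonic cells, which read −0.91, −0.62 and −0.65 on the knockout arrays and −0.56, 1.32 and 1.30 on the wild-type arrays (difference −1.41, SE 0.53, limma adjusted p = 0.481). Zfp57, which maintains imprints, differed by −0.54 (SE 0.27), Mbd3 by 0.31 (SE 0.25) and Hmga1 by −0.27 (SE 0.44). The mRNA-binding proteins named for Igf2, Igf2bp1, Igf2bp2 and Igf2bp3, which were named for their role and not by the rule, differed by 0.23 (SE 0.25), −0.12 (SE 0.30) and 0.05 (SE 0.27). Ctcf, which binds the control region between H19 and Igf2, was not analysed here.

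The neighbours of Igf2 and H19 on chromosome 7 were compared because the pair shares regulatory elements. Of 21 listed genes 19 were measured, and limma called 0. At an unadjusted p under 0.05 there were 3, all lower in knockout cells, against 10.3% of all features in either direction and 4.66% lower. The groups did not overlap for 4 of 19, or 21.1%, all lower, against 17.3% of all features in either direction and 5.89% lower. These 4 were Tnni2, Lsp1, Tnnt3 and Mrpl23, the 4 protein-coding genes that come directly before Igf2 on the H19 side. On the other side of Igf2, 0 of 15 were without overlap and 11 lay below 0, against 8770 of 19657 features below 0. Tnnt3 entered the test only through the wild-type arrays, where it was higher. Over genes well above background on all 6 arrays, 17 neighbours were tested, 2 had an unadjusted p under 0.05 and limma called 0. Under that filter 1779 of 18130 features had an unadjusted p under 0.05. The split by side was made after the values were seen and was not tested. The list ended at Tnni2 on the H19 side but ran to Dhcr7, 21 genes from Igf2, on the other. Genes beyond Tnni2 were not among these neighbours.

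Tnnt3, a troponin gene of fast muscle, read −6.41, −7.68 and −6.80 on the knockout arrays and −4.83, −4.05 and −4.16 on the wild-type arrays, and was well above background on 2 knockout arrays and all wild-type arrays. Its difference of −2.62 (SE 0.40, limma adjusted p = 0.163) was −1.58 on slide 1 and −3.13 on slide 2, and −0.77 after normexp correction with quantile normalisation. The muscle markers Myod1, Myog, Des, Myf5 and Ckm did not pass the detection filter. Acta1, the skeletal muscle actin gene and the 1 muscle marker that did, read −0.48, −2.32 and −1.23 on the knockout arrays and 0.86, −1.11 and −0.86 on the wild-type arrays. Its difference of −0.98 (SE 0.66, limma adjusted p = 0.554) had the direction of both troponin genes, and its part in their values was not tested. Lsp1, an actin-binding protein gene, read −0.68, −1.44 and −2.29 on the knockout arrays and −0.36, 0.71 and 0.70 on the wild-type arrays (difference −1.82, SE 0.49, limma adjusted p = 0.420). Tnni2, another fast-muscle troponin gene, read −2.55, −3.77 and −4.11 on the knockout arrays and −2.46, −0.73 and −0.77 on the wild-type arrays (difference −2.15, SE 0.60, limma adjusted p = 0.442). On slide 1 the differences of Lsp1 and Tnni2 were −0.32 and −0.09, and on slide 2 they were −2.57 and −3.18. Mrpl23, a mitochondrial ribosomal protein gene, differed by −0.43 (SE 0.23) and Tnfrsf22, a decoy receptor gene beyond Igf2, by −0.77 (SE 0.37). On knockout array 1, where Igf2 was lowest, Lsp1, Tnni2 and Tnnt3 had their highest values of the knockout arrays. Their profiles and that of Igf2 thus differed within the group. Mrpl23 lay there between its values on the other knockout arrays.

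**Figure D4:**
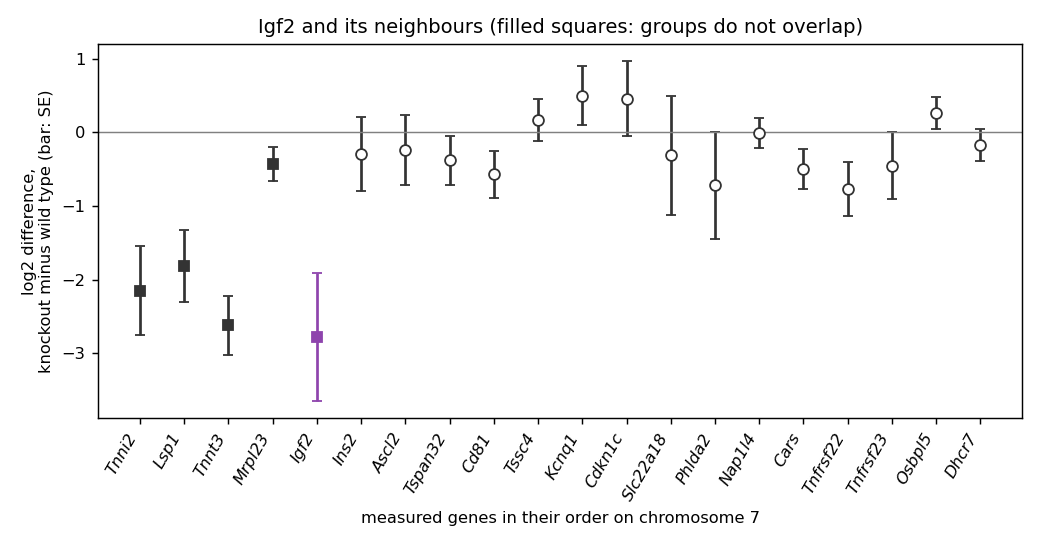
Log2 difference, knockout minus wild type, with SE bars (y axis) for Igf2 and 19 measured neighbours in their order on chromosome 7 (x axis, rank only); filled squares are genes whose groups do not overlap. Tnni2, Lsp1, Tnnt3 and Mrpl23, on the H19 side, and Igf2 lie below 0 without overlap, and no gene on the other side does.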

How the data were processed

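Per the file headers, the authors read the arrays with Agilent Feature Extraction 10.5.1.1 and deposited spot intensity columns: the processed signal, which is corrected for background, the median and background signals, and flags. The deposited value table holds log2 values, for which the submitters' processing notes name limma. By rank correlation its knockout columns 1, 2 and 3 fitted scanner files 2, 3 and 1 best. The groups are unaffected, and array numbers here are those of the scanner files.

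Control spots and outlier spots were dropped, spots of a probe were averaged as log2 of the processed signal, and each array's 75th percentile was subtracted. A probe with several spots counted as above background if most spots did. Accessions were matched without versions to a RefSeq table of GRCm38.p6 (23374 of 41174 probes). The files name build mm8, so the table gave only names and gene order, and printed coordinates belong to the RefSeq sequences. Each gene took the values of 1 probe, the brightest of those kept (25520 kept probes, 19657 features). The Terf2ip bound sets its wild-type mean against, on each knockout array, its own signal or the dimmest signal well above background, whichever was higher.

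Groups were compared with limma 3.58.1 in R 4.3.3 (lmFit, eBayes, 2-sided, Benjamini-Hochberg 0.05 over all features, no block), which was tested on simulated data. The simulated arrays were independent, so that test does not cover the likeness of wild-type arrays 2 and 3. Alternatives were normexp (offset 50, on the median signal) with quantile normalisation, median scaling, the value table, filters, probe means, a trended robust variance, blocks, slide 2 alone, wild-type arrays 2 and 3 averaged, and each array left out. Members, lists and tests were chosen with earlier results of these data known. The text names all members, and from each list the 4 largest differences, the 2 smallest p-values and any gene past the threshold. It also names the 5 closest profiles of Igf2 and Igfbp3. Some genes that this rule picks are not reported here. Igf2bp1, Igf2bp2, Igf2bp3, Mrpl23 and the cell type markers are named outside this rule. Deviations of arrays with the same number correlated at 0.01, 0.05 and −0.08, so the numbers were not taken as pairs.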

Additional observations from a re-analysis of the deposited data

How the results depend on the processing

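Over all features limma called 2. It called 4 with the mean of a gene's probes and 6 when every probe was tested by itself. It called 0 over probes above background on all arrays (1779 at an unadjusted p under 0.05), with the replicate block (2354), with the slide block (3483) and with wild-type arrays 2 and 3 averaged (691). It called 302 on slide 2 alone and between 0 and 64 without single arrays, 64 coming without wild-type array 1. The fits with 302 and 64 calls contain no wild-type array but 2 and 3, which were nearly alike. The filter for probes above background on all arrays left out Terf2ip before the test, so it could not be called there. On slide 2 alone 1 member passed (Igfbp5 at −3.78), 3 other IGF axis genes (Hmga2 at −1.94, Igfbp2 at 6.22 and Plat at 2.04) and 1 chromosome 7 neighbour (Tnni2 at −3.18). Without single arrays 0 to 1 other axis genes passed (Igfbp2 at 6.33 without wild-type array 1). These counts were 0 with the replicate block, as in the comparison without it, and the block left each member's difference as it was.

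Igf2, Igf1r, Igfbp4 and Igfbp5 kept their direction under all 17 alternatives. Signs turned for Igf1 with wild-type arrays 2 and 3 averaged (−0.46) and for 4 members on slide 2 alone: Igf2r (−0.20), Igfbp3 (0.09), Igfbp6 (2.06) and Igfbp7 (0.37). Without single arrays Igf1 ran from −0.49 to 2.84, Igfbp6 from −1.35 to 0.91, Igfbp7 from −0.85 to 0.40 and Hmga1 from −0.70 to 0.03. Eif4ebp1 ran from −0.90 to −0.28, Zfp57 from −0.66 to −0.32, Mbd3 from 0.16 to 0.44 and Tnfrsf22 from −1.04 to −0.48. The causes were not tested. Terf2ip kept its direction under 16 alternatives (−6.86 to −2.61) and missed the threshold with the replicate block (limma adjusted p = 0.177), the slide block (0.0626), wild-type arrays 2 and 3 averaged (0.0653), or without wild-type array 2 (0.0748) or 3 (0.0583) or knockout array 1 (0.0591) or 3 (0.0561). Median scaling moved the median of all features by 0.11 and dropping the filter by −0.15. For Terf2ip, knockout signals near background allow only a bound.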
